A study of Mus musculus with 9 samples.

Results

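Complement is a cascade of plasma proteins, and in fat several of its factors are made locally. The genes described here are 9 complement factors, namely C2, C3, C4b, C6, C7, Cfb, Cfd (adipsin), Cfp and Serping1, measured on microarrays of mouse inguinal fat, a white depot under the skin of the groin. Each gene was represented by the array row that names it alone, and where several rows did so, by the row with the highest mean over the 9 arrays. This rule found 7 of the 9 genes, out of 16898 genes tested in all. C3 and Cfd have no row under this rule and were not analysed here. The genes were chosen by their function and with earlier values of these arrays in view, C2 for its lower value in the cold. The cold difference of C2 is therefore a description and carries no test, and the counts over the set are descriptions too.

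In the classical and lectin pathways, activated C1 or MASP proteases cut C4 and C2, whose fragments form an enzyme that cleaves C3. In the alternative pathway, factor B (Cfb) takes the place of C2, factor D (Cfd, adipsin) cuts factor B, and properdin (Cfp) stabilises the resulting enzyme. Both routes end in the membrane attack complex, to which C6 and C7 contribute, while C1 inhibitor (Serping1) blocks the proteases at the start. Adipocytes are a main source of adipsin, and stromal cells and macrophages of the fat pad also make complement proteins.

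The 3 groups held 3 arrays each. Room temperature controls were Adiponectin-rtTA; TRE-Cre; Zfp423+/+ mice, and knockouts were Adiponectin-rtTA; Tre-CRE; Zfp423loxP/loxP mice, also at room temperature. The cold group had the control genotype and spent the last 14 days at 6 °C. Every group, the controls included, carried both transgenes and ate doxycycline chow for 28 days from 8 weeks of age, and cold was applied to controls only. The design asked how closely adipocytes that lose Zfp423, a transcription factor that keeps white adipocytes white, resemble the beige adipocytes that form in the cold. The adiponectin promoter restricts the deletion to adipocytes, so the other cells of the pad keep the gene. In bulk tissue, fewer cells of a type and less RNA per cell cannot be told apart. No label states whether arrays within a group are different animals, and p-values here cover just array-to-array spread, which may be technical.

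The labels and the tissue were checked first. Zfp423 stood at 8.45 ± 0.27 (SD, n = 3) log2 units in controls and 7.92 ± 0.31 in knockouts, without overlap but short of the threshold (limma adjusted p = 0.255). All 12 listed adipocyte markers were above the filter, with means over the 9 arrays between 13.86 (Lep) and 19.91 (Fabp4). Ucp1, the uncoupling protein of thermogenic fat, rose from 12.41 ± 0.66 in controls to 19.31 ± 0.85 in knockouts and 19.02 ± 0.16 in the cold (limma adjusted p = 0.00863 and 0.00226). Control replicate 3, knockout replicate 3 and cold replicate 2 were the middle value of their group in 58.2%, 65.6% and 47.9% of genes. The description label of cold replicate 3 starts with a different prefix from that of the other arrays. In 56.6% of the tested genes at least 1 value recurred exactly on another array, and C6 read 5.92 on 4 of the 9 arrays.

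C2, the protease that joins C4b in the C3-cleaving enzyme of the classical pathway, was lower in both the knockouts and the cold. Its log2 values were 10.54, 10.30 and 10.50 on control arrays 1, 2 and 3, then 9.18, 8.91 and 9.01 in knockouts, and 9.18, 8.74 and 8.09 in the cold. All 6 knockout and cold arrays lay below the lowest control, while the knockout and cold arrays overlapped. The difference from controls was -1.41 ± 0.25 (SE) log2 units in knockouts, a 2.66-fold lower level, and -1.78 ± 0.25 in the cold, a 3.43-fold lower level. In knockouts it did not pass the threshold of 0.05 over all genes (limma adjusted p = 0.0664), and of the 9 fits that left out 1 array only that without knockout replicate 1 passed (-1.49; limma adjusted p from 0.0467 to 0.264 over the 9). Without the 3 arrays that lay between the others the differences were -1.37 and -1.79. A dimmer row that also names C2 alone read between 4.57 and 4.78 on all arrays, below the filter of 5.31, and was not used. With both rows averaged the differences were -0.70 and -0.87.

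C4b, the C4 protein that binds C2, followed the same order of groups. It read 14.41, 14.53 and 14.37 in controls, 13.79, 13.13 and 13.49 in knockouts and 14.14, 13.40 and 12.00 in the cold. No knockout or cold array reached the controls, and the cold arrays spread over more than the whole range of the knockouts. The differences were -0.97 ± 0.49 (SE) in knockouts and -1.26 ± 0.49 in the cold, and the limma adjusted p was 0.381 in the first and 0.219 in the second, short of the threshold. The cold value was -0.67 without cold replicate 3. C4a, a near-copy of C4b that RefSeq lists as a transcribed pseudogene, stood at -0.74 ± 0.38 and -0.96 ± 0.38 with limma adjusted p of 0.388 and 0.223. Because the copies share sequence, their values are uncertain as separate genes.

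Cfb, the alternative-pathway counterpart of C2, was lower by less than C2. Its replicates were close in controls and knockouts (SD 0.11 and 0.14) and wider apart in the cold (SD 0.40). Leaving out each array in turn put the cold difference between -0.95 and -0.56. Control arrays read 12.66, 12.87 and 12.71, knockout arrays 12.28, 12.01 and 12.22, and cold arrays 12.34, 12.03 and 11.55. Again all 6 knockout and cold arrays lay below every control. The difference was -0.58 ± 0.19 (SE) in knockouts (95% interval -1.02 to -0.13) and -0.77 ± 0.19 in the cold (-1.21 to -0.33). With limma adjusted p of 0.204 and 0.102, neither passed over all genes. Within arrays the log2 difference of C2 and Cfb changed by -0.84 in knockouts and by -1.01 in the cold, and neither overlapped the controls. This is a description of unequal change and was not tested.

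**Figure D1:**
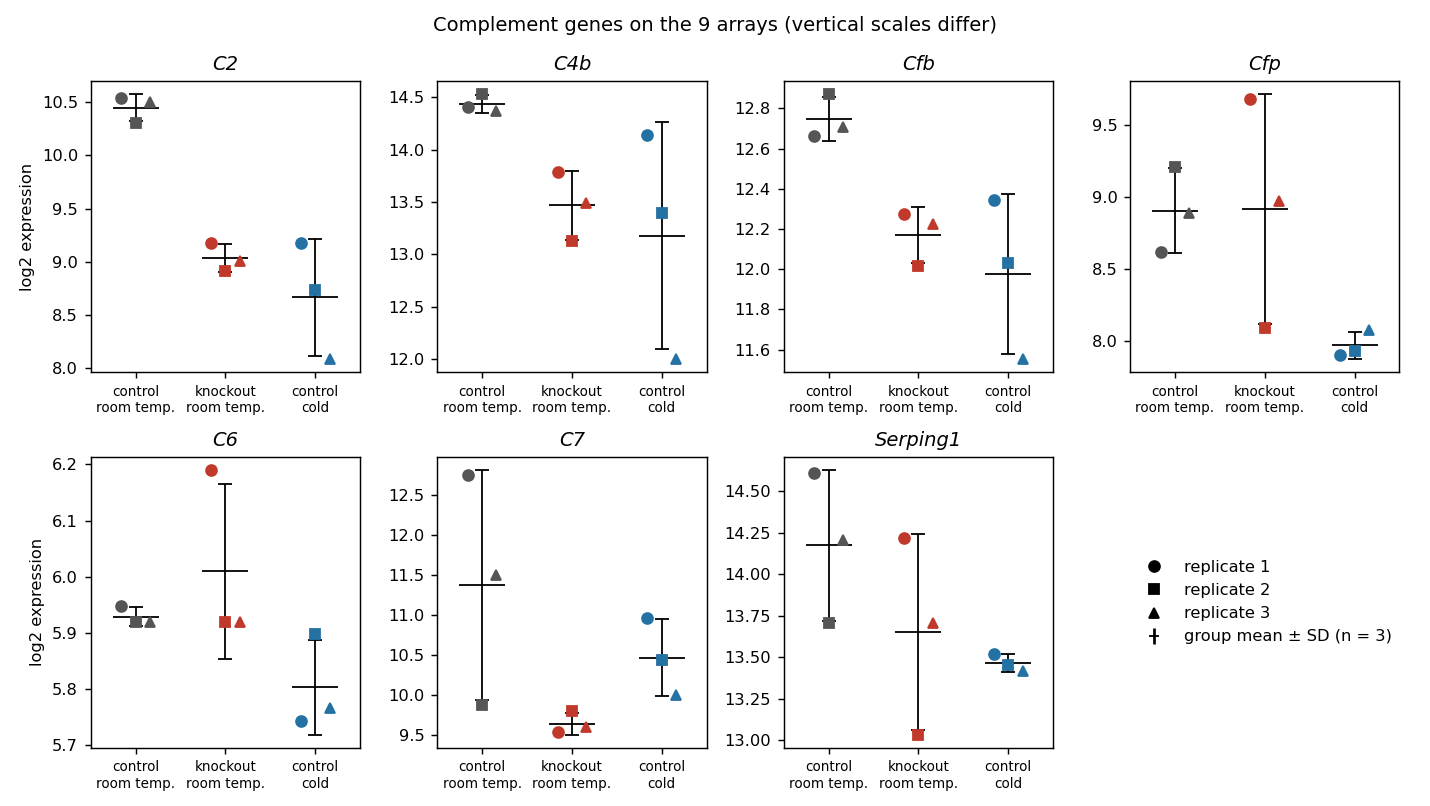
Log2 expression of the 7 measured complement genes on each of the 9 arrays, by group, with symbols for replicates 1 to 3 and bars for the group mean ± SD (n = 3); vertical scales differ between panels. For C2, C4b and Cfb every knockout and cold array lies below every control array, while C7 spans 9.89 to 12.75 among the controls alone.

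C2, Cfb and C4b are neighbours in the class III region of the major histocompatibility complex. Of 16 protein-coding genes in RefSeq order from 4 genes before C4b to 4 genes after C2, 13 are not members, and 8 of those were tested. None of these 8 had all knockout and cold arrays below the controls, against 2.35% of all genes. In either comparison 0 passed, against 0.367% and 1.51% of all genes (smallest limma adjusted p 0.212 in knockouts and 0.40 in the cold). At such shares these counts do not set the 8 apart from other genes. Tnxb, which encodes the matrix protein tenascin-X and lies beside C4b, stood at -0.61 ± 0.20 in knockouts and -0.32 ± 0.20 in the cold. The other 7 lay between -0.07 and 0.26 in knockouts and between -0.06 and 0.07 in the cold. Nelfe, which sits next to Cfb, stood at -0.07 ± 0.09 and 0.03 ± 0.09. In knockouts all arrays of Tnxb lay below the controls, and in the cold they overlapped.

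**Figure D2:**
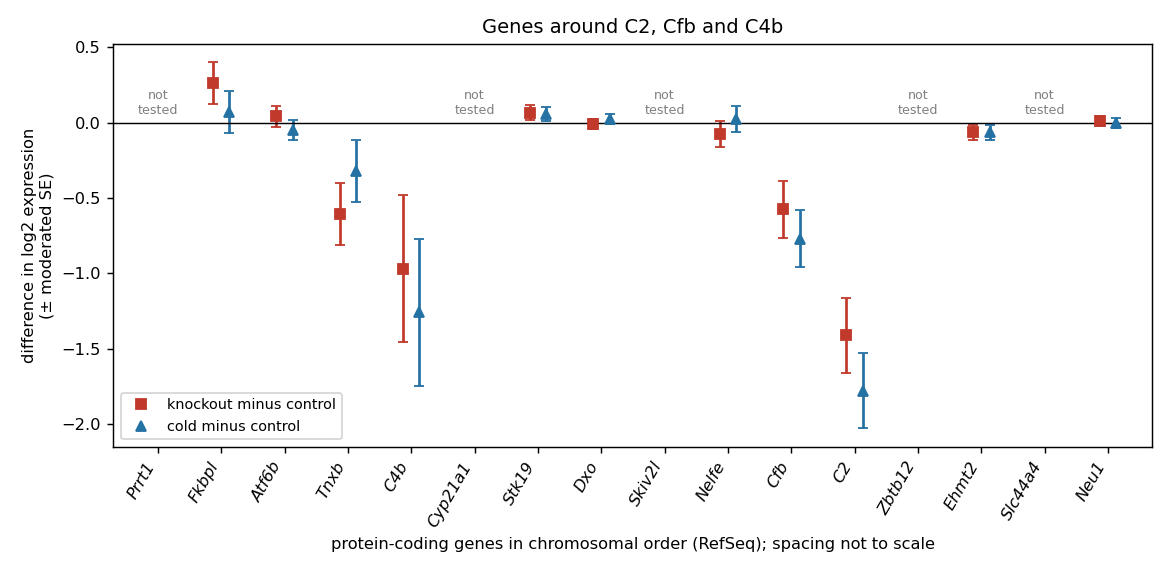
Difference in log2 expression from room temperature controls (± moderated SE) for 16 protein-coding genes in chromosomal order around C2, Cfb and C4b, with squares for knockouts and triangles for the cold. C2 (-1.41 and -1.78), Cfb (-0.58 and -0.77) and C4b (-0.97 and -1.26) stand below genes such as Nelfe (-0.07 and 0.03). Tnxb (-0.61 and -0.32) stands slightly below Cfb in knockouts. Genes below the filter or without a row are marked as not tested.

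Cfp encodes properdin, which leukocytes such as macrophages, neutrophils and T cells make and store. It read 8.62, 9.21 and 8.89 in controls, 9.69, 8.09 and 8.97 in knockouts and 7.90, 7.93 and 8.08 in the cold. The cold arrays were the lowest 3 of the 9, the knockout arrays ran from the highest value to 8.09, and knockouts and controls overlapped widely. In the cold the difference from controls was -0.94 ± 0.37 (SE; limma adjusted p = 0.222), and with these 2 groups fitted alone it passed (limma adjusted p = 0.0360). Between cold and knockouts it was -0.95 ± 0.37 (limma adjusted p = 0.162), or -1.36 without knockout replicate 2 (limma adjusted p = 0.0230) and -0.56 without knockout replicate 1. Knockouts and controls differed by 0.01 ± 0.37 (95% interval -0.86 to 0.88), a value whose sign turned under quantile normalization (-0.03).

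The mean of the macrophage markers was high and low on the same arrays as Cfp, though not every marker was. The T cell, B cell and interferon-induced lists shared this order within controls and within knockouts. Relative to the control mean, Cfp stood at -0.29, 0.30 and -0.02 in controls, 0.78, -0.82 and 0.07 in knockouts and -1.0, -0.98 and -0.83 in the cold. The mean of the 9 measured macrophage markers stood at -0.42, 0.43 and -0.01, then 0.30, -1.04 and -0.20, then -1.05, -0.95 and -0.90 on the same arrays. Both were highest and lowest on the same arrays within controls and within knockouts. Cd163 ran the other way, with 9.38, 7.87 and 8.66 in controls and 7.32, 8.35 and 7.84 in knockouts. Mertk was at 0.30 in the cold, with all arrays above the controls. In the cold 8 of the 9 macrophage markers were below 0. All cold arrays lay below the controls for 7 of the 9, against 18.1% of all genes. The 7 measured T cell markers averaged -0.31, 0.33 and -0.02 in controls and 1.45, -0.22 and 0.83 in knockouts. In the cold they stood between -1.03 and -0.88. The B cell list read -0.78, 0.76 and 0.02, then 0.43, -0.88 and -0.14, in controls and knockouts. Over all tested genes, deviations from group means on knockout array 1 correlated with those on control array 2 (r = 0.47). Those on knockout array 2 correlated with control array 1 (r = 0.45). The order was thus not particular to Cfp and the macrophage markers. The part of these cells in the values of Cfp was not tested.

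C6 and C7 bind to C5b in turn as the membrane attack complex forms. C7 read 12.75, 9.89 and 11.51 in controls, 9.54, 9.80 and 9.60 in knockouts and 10.97, 10.44 and 10.01 in the cold. The knockouts were the lowest 3 arrays, close together, whereas controls ran from 9.89 to 12.75 and enclosed the cold arrays. The difference was -1.73 ± 0.65 (SE) in knockouts (limma adjusted p = 0.254) and -0.91 ± 0.65 in the cold (limma adjusted p = 0.454). These sizes changed with single control arrays. Without control replicate 1 the values were -1.05 and -0.22, and without control replicate 2 they were -2.48 (limma adjusted p = 0.0473) and -1.66. The cold arrays were all above the knockouts, by 0.82 ± 0.65 on average (limma adjusted p = 0.447).

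C6 stood near the filter on every array, and little can be read from it. Its values lay between 5.74 and 6.19, and the differences were 0.08 ± 0.08 (SE) in knockouts and -0.13 ± 0.08 in the cold (limma adjusted p = 0.668 and 0.407). Without knockout replicate 1 the knockout value was -0.0095. The bases before the start of C7 and Cfp are shown for their wide spreads between arrays of 1 group. They were the widest among the measured members with a RefSeq promoter entry (build GRCm38.p6), which were C6, C7 and Cfp alone. C7 is given from chr15:5063774-5064023 and Cfp from chrX:20931556-20931805, both on the minus strand, as the 250 bases before the start, 5′ to 3′, with motif matches in capitals.
C7: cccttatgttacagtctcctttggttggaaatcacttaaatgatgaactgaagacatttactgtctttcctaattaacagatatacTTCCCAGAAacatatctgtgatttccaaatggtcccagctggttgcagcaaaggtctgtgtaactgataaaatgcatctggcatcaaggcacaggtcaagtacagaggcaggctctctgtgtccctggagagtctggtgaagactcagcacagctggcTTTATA
Cfp: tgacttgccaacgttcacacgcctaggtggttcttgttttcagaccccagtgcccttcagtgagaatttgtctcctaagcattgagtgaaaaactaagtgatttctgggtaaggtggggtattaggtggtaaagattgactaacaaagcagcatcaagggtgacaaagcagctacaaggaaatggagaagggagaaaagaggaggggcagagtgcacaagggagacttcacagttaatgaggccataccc
On both strands, 6 motifs were searched. They were the TATA box with the letters TATAAA, the interferon-activated site TTCNNNGAA, the C/EBP site TTGCNNAA, the PU.1 site GAGGAAGT, the CCAAT box and an NF-kB site. C7 held TTTATA, the TATA box read on the other strand, 6 bases before the start, and TTCCCAGAA 164 bases before it, and Cfp and C6 held 0 of the 6. No match says only that these letters are not in this window. Of 32851 windows of this length, 12.4% hold the first motif and 7.02% the second, 17.6% the NF-kB motif, 9.56% the C/EBP motif, 2.44% the PU.1 motif and 33.8% CCAAT. Promoter entries were found for 5 of the 9 members (C3, C6, C7, Cfd and Cfp), and C2, C4b, Cfb and Serping1 had none.

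Serping1 encodes C1 inhibitor, which inactivates C1r, C1s and the MASP proteases and also restrains the kinin system. It read 14.61, 13.70 and 14.21 in controls, 14.22, 13.03 and 13.70 in knockouts and 13.52, 13.45 and 13.42 in the cold. The cold arrays were close together and below every control, and the knockouts ran from above to below them. The difference was -0.71 ± 0.32 (SE) in the cold (limma adjusted p = 0.266) and -0.52 ± 0.32 in knockouts (limma adjusted p = 0.47). The knockout value was -0.81 without knockout replicate 1, -0.21 without knockout replicate 2 and -0.30 without control replicate 1.

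Across the 7 genes, 0 passed between knockouts and controls, where 0.367% of all tested genes passed (limma adjusted p under 0.05). At an unadjusted p under 0.05 there were 3 of 7 (C2, C7 and Cfb), against 16.2% of all genes. In 4 of 7, namely C2, C4b, Cfb and C7, all knockout arrays lay below all control arrays, as they did in 8.01% of all genes. The median difference was -0.58 log2 units, against 0.02 over all genes. With 3 arrays against 3, an exact permutation test of 1 gene cannot give a two-sided p below 0.1.

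Between cold and room temperature controls, 1.51% of all genes passed, and of the 6 members other than C2, 0 did (limma). At an unadjusted p under 0.05 there were 3 of these 6 (C4b, Cfb and Cfp), against 20.3% of all genes. In 6 of 7 genes, all but C7, the cold arrays lay below all control arrays, as in 18.1% of all genes, and the median was -0.91 against -0.02 over all genes. For C2, C4b and Cfb both knockout and cold arrays lay below all controls, as they did in 2.35% of all genes. These comparisons share their control arrays, and the members were chosen with such values known, so the counts are a description of these genes.

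Between cold and knockout tissue, which measures how the responses differ, 0 of 7 members passed (2.40% of all genes; limma). At an unadjusted p under 0.05 there were C6 and Cfp, against 26.7% of all genes. The cold arrays lay below the knockouts for C6 and Cfp (20.0% of all genes) and above them for C7 (12.3%). For C2 the difference was -0.37 ± 0.25 (95% interval -0.95 to 0.22), for C4b -0.29 ± 0.49 (-1.44 to 0.86), for Cfb -0.19 ± 0.19 (-0.64 to 0.25) and for Serping1 -0.19 ± 0.32 (-0.95 to 0.57). These intervals do not show that the groups are alike. Without cold replicate 3 the values of C4b and Cfb were 0.30 and 0.016, and without knockout replicate 1 that of Serping1 was 0.095.

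Of 42 other complement genes, 41 had a row, 26 passed the filter, and 0 of these 26 passed the test in any of the 3 comparisons (limma). At an unadjusted p under 0.05 there were 5 in knockouts, 12 in the cold and 4 between cold and knockouts, against 16.2%, 20.3% and 26.7% of all genes. The 5 and the 12 include Cpn2, which was higher in both groups and passed the filter only through the knockout and cold arrays. These counts are therefore a description. Their medians were -0.18 in knockouts and -0.62 in the cold. Below the filter were the terminal factors Hc (C5), C8a, C8b and C9, the lectins Mbl1, Mbl2, Fcnb and Colec10, the proteases Masp1 and Masp2, and Cfi, C4bp, Cpn1, C5ar2 and Vsig4. All knockout arrays lay below the controls for 4 of 26 genes (8.01% of all genes), C4a and the classical proteases C1ra, C1rb and C1s1, and for these 4 the cold arrays did so too. In all, the cold arrays lay below the controls for 16 of 26 (18.1% of all genes).

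The first step of the classical pathway is carried by the recognition protein C1q and its proteases C1r and C1s. C1ra stood at -0.57 ± 0.18 (SE) in knockouts and -0.75 ± 0.18 in the cold, and C1s1 at -0.48 ± 0.19 and -0.46 ± 0.19. C1rb, a close copy of C1ra, had -0.54 ± 0.19 and -0.75 ± 0.19. The recognition subunit C1qb, a macrophage product, stood at -0.05 ± 0.48 in knockouts and -1.18 ± 0.48 in the cold, and C1qa and C1qc at -0.71 ± 0.34 and -0.57 ± 0.28 in the cold. Between cold and knockouts C1qb stood at -1.12 ± 0.48 and C1qa at -0.57 ± 0.34 (limma adjusted p = 0.191 and 0.311). None passed; the smallest limma adjusted p was 0.1, for C1ra in the cold. C1rb, C1s1 and C1qc were singled out after their values were seen.

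Among regulators, Cd55, which dissociates the C3-cleaving enzymes on cells, stood at -0.39 ± 0.40 (SE) in knockouts and -1.33 ± 0.40 in the cold (limma adjusted p = 0.673 and 0.149). Cpn2, a subunit of the carboxypeptidase that inactivates anaphylatoxins, was below the filter in all controls (4.76, 5.15 and 4.78) and read 5.71, 6.97 and 5.97 in knockouts and 6.07, 5.93 and 5.71 in the cold. It passed the filter only through the knockout and cold arrays, so its differences of 1.32 and 1.01 are given as a description. Clusterin (Clu), which binds terminal complexes, stood at 0.63 ± 0.42 in knockouts and -0.85 ± 0.42 in the cold, and -1.48 between cold and knockouts (limma adjusted p = 0.0924), where Cd55 stood at -0.94 (0.187). Of the receptors, C3ar1, the receptor for the C3a fragment, stood at -0.91 ± 0.58 and -1.60 ± 0.58, and the integrin subunit Itgam of complement receptor 3 at -0.56 ± 0.42 and -1.22 ± 0.42 (limma adjusted p between 0.185 and 0.556). Between cold and knockouts its partner Itgb2 stood at -1.54 (limma adjusted p = 0.135) and Itgax, the subunit of complement receptor 4, at -0.74 (limma adjusted p = 0.227). Of the terminal list C8g alone was tested, at -0.13 ± 0.08 and 0.13 ± 0.08.

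**Figure D3:**
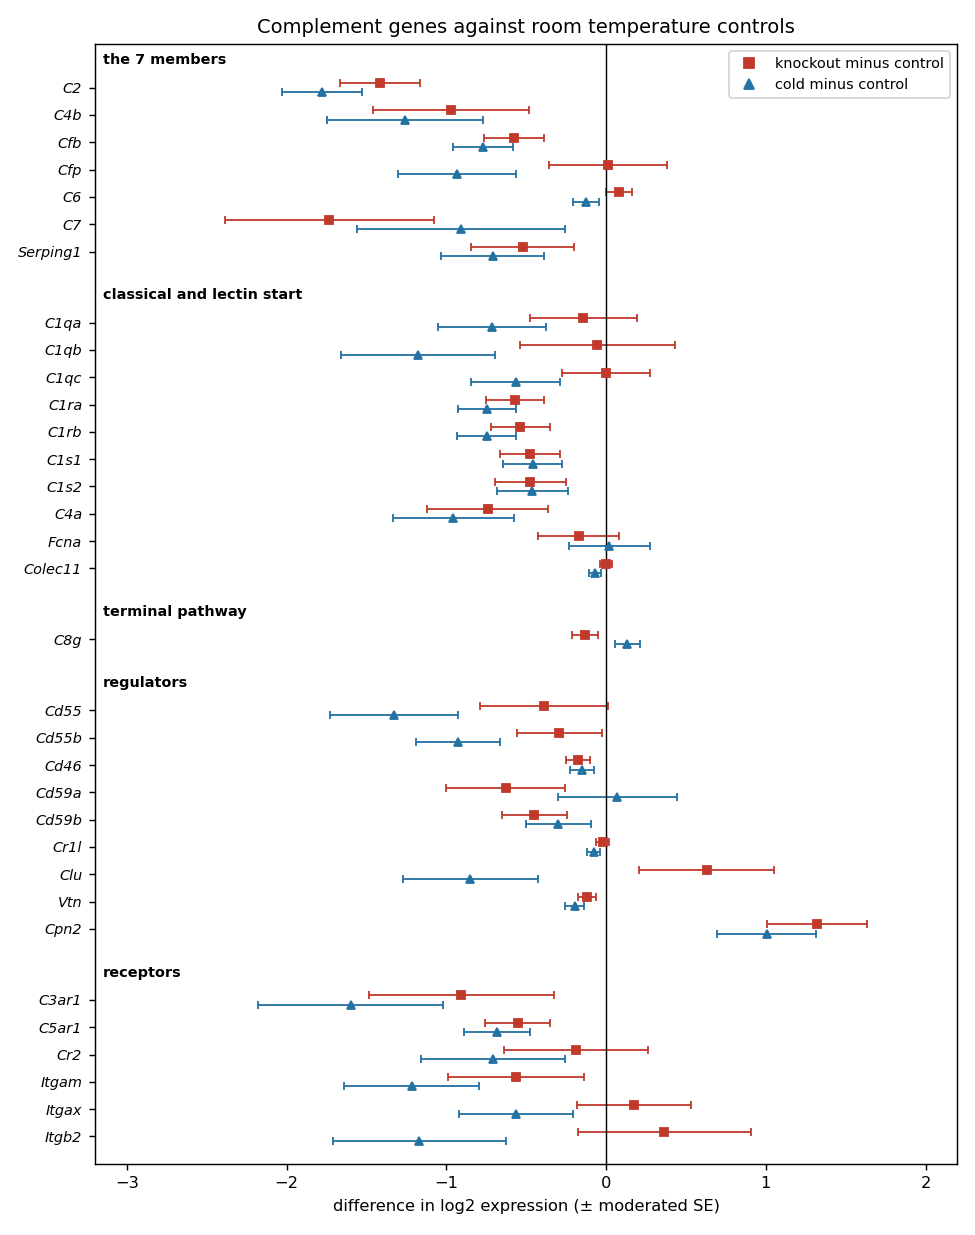
Difference in log2 expression from room temperature controls (± moderated SE) for the 7 measured members and 26 other complement genes, with squares for knockouts and triangles for the cold. Most points lie left of 0, C1qb lies near 0 for knockouts (-0.05) and at -1.18 for the cold, and Cpn2 lies to the right at 1.32 and 1.01.

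The mean of the fibroblast and adipocyte progenitor markers was lower on every knockout and cold array than on any control, as C2, C4b and Cfb were. Of the 10 single markers, only 2 had this pattern, the collagen genes Col1a1 and Col3a1 (2.35% of all genes). The pattern of the list mean therefore does not hold for each marker. Of the 10, 8 were below 0 in knockouts and 7 in the cold. Their medians were -0.58 and -0.44, against 0.02 and -0.02 over all genes. Relative to the control mean, the 10 measured markers of that list averaged between -0.30 and 0.36 in controls, between -0.73 and -0.39 in knockouts and between -0.72 and -0.47 in the cold. The collagen genes Col1a1 (-1.30 and -1.93) and Col3a1 (-1.13 and -1.47) had the lowest values in knockouts and the cold, while Pdgfrb stood at 0.11 and 0.16, Dpp4 at 0.21 in knockouts, and Dpt and Cd34 at 0.05 and 0.01 in the cold. In knockouts 5 of the 10 had all arrays below the controls (8.01% of all genes), and in the cold 4 of the 10 did (18.1% of all genes). None of the 10 passed in either comparison (limma), and 5 in knockouts and 4 in the cold had an unadjusted p under 0.05, against 16.2% and 20.3% of all genes. In controls the list stood at 0.36, -0.30 and -0.06, and C7 at 1.37, -1.50 and 0.13 in the same order. Control array 2, where the list was lowest, had the lowest C2 of the controls (-0.14) but the highest C4b and Cfb. Within knockouts the list, C2, C4b and Cfb were all highest on array 1 and lowest on array 2, while C7 was lowest on array 1. In the cold the list, C2, C4b, Cfb and C7 all fell from array 1 to array 3. The part of these cells in the values of the complement genes was not tested. Mesothelial markers, including Msln, Upk3b and Wt1, were below the filter but for 1 of 8. Of 7 measured hepatocyte markers, Apoa1, Ttr, Apoh, Fga and Fgb were below it as well. The remaining hepatocyte markers were above it, Alb at -1.35 in knockouts and 0.64 in the cold and Cyp2e1 at -0.89 and 0.12. Of 13 measured interferon-induced genes 0 passed, and their medians were 0.10 in knockouts and -0.19 in the cold. Of the 12 adipocyte markers, Dgat2 and Gpd1, enzymes of triglyceride synthesis, rose in the cold, by 0.67 and 1.88 (limma adjusted p = 0.0255 and 0.0140). Adipoq went the other way, at -0.46 in knockouts and -0.44 in the cold (limma adjusted p = 0.0965 and 0.0946). All its knockout and cold arrays lay below the controls, as for C2, C4b and Cfb. The median of the adipocyte list was -0.18 in knockouts and 0.03 in the cold. The B cell list stood between -0.78 and 0.76 in controls, between -0.88 and 0.43 in knockouts and between -1.64 and -0.66 in the cold. The neutrophil list stood between -0.33 and 0.38, between -0.31 and 1.87, and between -0.37 and -0.14 in the same groups. S100a8 and S100a9 read 9.51 and 9.73 on knockout array 1, where the list was highest, while the knockout differences of Ly6g, Csf3r and Cxcr2 were 0.03, 0.10 and 0.21. S100a8 passed the filter only through knockout arrays 1 and 3 (9.51 and 8.83), so the list values there are a description. Ngp, Retnlg and Camp were below the filter and not in the list mean. Their means were higher in knockouts than in controls. Ngp read 3.74, 3.94 and 3.83 in controls, 6.84, 4.09 and 5.97 in knockouts and 4.01, 4.09 and 4.09 in the cold. Only knockout arrays 1 and 3 of Ngp read above the filter of 5.31, and little can be read from its other values. The knockout and cold arrays of Retnlg and Camp overlapped the controls.

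**Figure D4:**
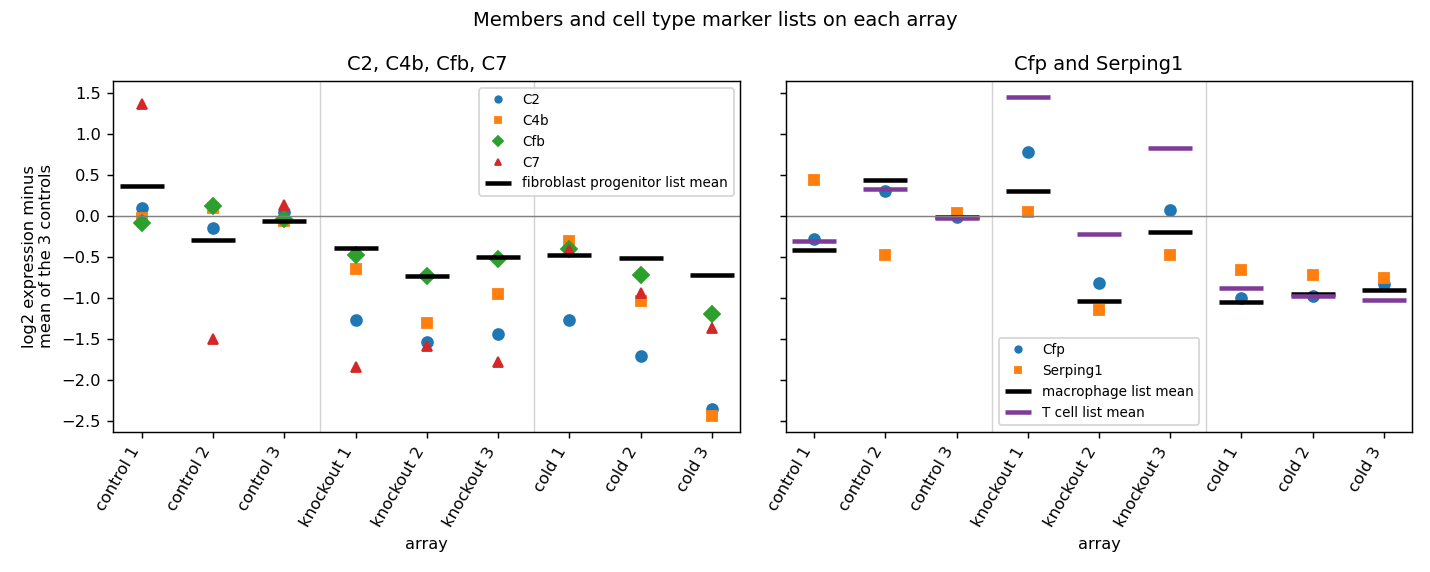
Log2 expression minus the mean of the 3 controls on each array, for C2, C4b, Cfb and C7 with the mean of the fibroblast and progenitor markers (left) and for Cfp and Serping1 with the means of the macrophage and T cell markers (right). Cfp, the macrophage markers and the T cell markers are each lowest of the knockouts on array 2 (-0.82, -1.04 and -0.22). All are low on the cold arrays, and C7 differs between control arrays 1 and 2 (1.37 and -1.50). Within controls Serping1 (0.44, -0.47 and 0.03) runs opposite to the macrophage and T cell markers. In each group its arrays have the order of the fibroblast and progenitor list.

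The genes whose values on the 9 arrays, each centred on its own mean, lay closest to those of C2 were Col3a1, Hcar2, Chrdl1, C4b and Svep1. Their root-mean-square distances to C2 were 0.29, 0.31, 0.36, 0.37 and 0.39 log2 units, where the spread of C2 itself by the same measure was 0.81. Col3a1, a fibrillar collagen gene, stood at -1.13 in knockouts and -1.47 in the cold, and Hcar2, the niacin receptor of adipocytes, at -1.56 and -1.52. C4b was the nearest to C2 among the tested complement genes, and Col3a1 is also on the fibroblast list.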

How the data were processed

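Total RNA was hybridised to Affymetrix Mouse Transcriptome Array 1.0, 1 array per sample. The authors deposited log2 values for 72688 rows, made with Affymetrix Expression Console per the submitters' processing notes. The normalization, software version and genome build were not given in the sources used here; a log2 scale was inferred from the range, 1.84 to 19.93, and from array medians of 5.28 to 5.34. Precision is limited by how many arrays there are. The platform annotation gave the gene names: 31051 rows name 1 gene, 1534 several and 33185 none, with RefSeq (GRCm38.p6) for current symbols, gene order and promoters. Rows with a mean at or above the median row mean (5.31) and the brightest row per gene gave 16898 genes.

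Tests used limma 3.58.1 (lmFit, then eBayes; R 4.3.3) on all 9 arrays and 3 group means, with 6 residual and 1.23 prior degrees of freedom, two-sided, with Benjamini-Hochberg adjustment over all tested genes and a threshold of 0.05. Errors of differences are moderated standard errors, and intervals are at 95%. The fit was tested on simulated data. The members and the gene lists were chosen with earlier results of these data known. Named are the members, the 2 largest differences of each complement list where none passed, and the 5 genes nearest C2 in pattern, leaving out predicted and small RNA symbols; for Cfd, which the rule also named, none could be given. The marker lists give medians or means by array. Single genes of the macrophage, fibroblast, neutrophil, hepatocyte and adipocyte lists were named after their values were seen. Alternatives were quantile normalization, other filters, the mean of all rows of a gene, the 2 groups alone, trend and robust, array weights, the replicate block, and leaving out each array or the 3 arrays between the others.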

Additional observations from a re-analysis of the deposited data

How the results depend on the processing

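Over 18 alternatives, 390 recomputed differences of the 7 members and C4a kept their direction and side of the threshold. Another 20 came to pass and 11 changed sign. Most of the 20 came from array weights, a fit that did not converge and passed 11818 genes in knockouts, so they carry no weight. The other 8 concern C2 in the cold, which is given without a test. Counts of genes past the threshold moved widely. For knockout against control they were 62 in the fit reported, 116 with quantile normalization, 14 without a filter, 146 with the 75th percentile filter, 37 with trend and robust, 0 with the 2 groups alone (1950 at an unadjusted p under 0.05) and 0 without the 3 arrays between the others (689 unadjusted). For cold against control they were 255, then 406 with quantile normalization, 130 without a filter, 1346 with the 2 groups alone and 0 without those 3 arrays (790 unadjusted). For cold against knockout they were 405, then 222 without a filter, 708 with the 75th percentile filter and 0 without those 3 arrays (985 unadjusted), with 195 of 405 lower as reported and 147 of 468 under quantile normalization. Array weights, whose estimation did not converge, gave 11818, 8973 and 9973. Leaving out each array in turn gave 0 to 833, 23 to 985 and 14 to 2694 genes, the 0 beside 1966 and 2289 at an unadjusted p under 0.05. With the replicate block the counts were 1, 42 and 36; same-numbered arrays correlated between -0.46 and 0.08 in their deviations, so the numbers do not pair the samples. The cause of these shifts was not tested.

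C2 in the cold lay between -2.03 and -0.87 over the 18 alternatives. C2 in knockouts lay between -1.49 and -0.70, both comparisons nearest to 0 with its rows averaged. In knockouts it passed 0.05 in 3 of 18 (limma adjusted p 0.125 with the replicate block). These were the 75th percentile filter (limma adjusted p = 0.0437), the fit without knockout replicate 1 (0.0467) and array weights, which did not converge. For Cfp in knockouts the difference was -0.0264 with quantile normalization, -0.0262 without the 3 arrays between the others, and -0.37 to 0.42 when leaving out each array. For C6 in knockouts it was -0.00040 with array weights and -0.0095 to 0.13 when leaving out each array. Between cold and knockouts, leaving out each array gave -0.77 to 0.30 for C4b, -0.59 to 0.24 for C4a, -0.38 to 0.0164 for Cfb and -0.50 to 0.0949 for Serping1.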
